A study of Homo sapiens with 3 samples.

Results

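Tubulin isotypes, the products of the separate genes that encode alpha and beta tubulin, were followed in 3 populations of HCC827, an established human lung cancer cell line driven by a mutant EGF receptor. The genes were 4 alpha isotypes (TUBA1A, TUBA1B, TUBA1C and TUBA4A) and 6 beta isotypes (TUBB, TUBB2A, TUBB2B, TUBB3, TUBB4B and TUBB6), taken by symbol from a table of 31402 rows and 30866 distinct symbols. All 10 were present, on 13 rows. All cells carried the ClonTracer library of DNA barcodes and were kept as a polyclonal pool, so each population is a mixture of clones. Vehicle cells were kept in 0.1% DMSO for 4 days. Erlotinib-resistant cells had grown for 47 days in 2 µM erlotinib, which blocks the kinase of the EGF receptor. Dual-resistant cells were these same cells after 10 more days in 2 µM erlotinib plus 0.2 µM of the MET inhibitor crizotinib. Each population was represented by 1 RNA library, so no difference here has a test or an error estimate. Drug exposure, time in culture and resistance differed together and cannot be told apart.

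Microtubules are polymers of alpha and beta tubulin pairs that form the spindle, carry cargo and shape the cell. The isotypes have nearly the same folded body and differ mostly in a short acidic tail at the end of the protein, where motors, microtubule-associated proteins and modifying enzymes bind. Cells also adjust tubulin output: the adaptor TTC5 recognises the first residues of tubulin as it leaves the ribosome, and the mRNA is degraded when free tubulin is in excess. TUBA1A, TUBB2B and TUBB3 are best known as abundant isotypes of developing neurons, and TUBB3 is also found in carcinomas. TUBB, TUBB4B, TUBA1B and TUBA1C are the common isotypes of most dividing cells.

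The coding starts are shown because they encode the first residues, which the autoregulatory machinery reads. The sequences are GENCODE 29 transcripts on GRCh38, 5′ to 3′, and capitals mark the first 12 coding bases. The 10 isotypes had 6 different versions of these 12 bases. Different bases can encode the same residues, so these are not 6 versions of what the machinery reads. TUBA1A, TUBA1B and TUBA1C shared 1 version, TUBB and TUBB4B shared another, and TUBB3 with TUBB6 shared one more.
TUBA1A: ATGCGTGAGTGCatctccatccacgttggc
TUBA4A: ATGCGTGAATGCatctcagtccacgtgggg
TUBB: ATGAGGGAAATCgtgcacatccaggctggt
TUBB2A: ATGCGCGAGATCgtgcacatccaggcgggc
TUBB2B: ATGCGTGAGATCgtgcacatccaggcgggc
TUBB3: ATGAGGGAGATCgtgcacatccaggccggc

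The last 60 coding bases before the stop codon of the 6 beta isotypes are shown because they encode the tail, where most isotypes differ. Capitals mark the in-frame codons GAA and GAG, which encode glutamate. TUBB and TUBB3 each had 9 such codons among 20, and TUBB4B had 10. TUBB2A and TUBB2B differed only in the last codon, gct against gcg. Both codons encode alanine, so this stretch of the tail does not tell that pair apart.
TUBB: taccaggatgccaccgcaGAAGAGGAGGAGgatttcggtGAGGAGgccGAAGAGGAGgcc
TUBB2A: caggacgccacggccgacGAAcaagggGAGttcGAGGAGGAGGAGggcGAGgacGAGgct
TUBB2B: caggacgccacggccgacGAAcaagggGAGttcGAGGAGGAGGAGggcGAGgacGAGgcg
TUBB3: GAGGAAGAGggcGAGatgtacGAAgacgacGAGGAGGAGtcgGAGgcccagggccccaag
TUBB4B: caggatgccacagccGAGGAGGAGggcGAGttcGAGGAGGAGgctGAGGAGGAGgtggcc
TUBB6: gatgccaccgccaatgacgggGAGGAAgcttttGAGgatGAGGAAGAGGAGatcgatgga

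These likenesses bear on how far single isotypes can be told apart by short reads. Coding identity was 97.2% between TUBA1A and TUBA1B, 96.8% between TUBA1B and TUBA1C, and 98.2% between TUBB2A and TUBB2B. The 6 alpha pairs ranged from 84.4% to 97.2%, the 15 beta pairs from 81.0% to 98.2%, and the 24 pairs of an alpha with a beta from 54.8% to 57.6%. Of the 50-base windows of the TUBA1A transcript, 41.6% also occurred in another of the 10 isotypes. The same share was 56.6% for TUBA1B, 25.1% for TUBA1C, 60.3% for TUBB2A and 47.3% for TUBB2B. TUBB3 shared 8.66% with the other isotypes, TUBB4B 5.92% and TUBB6 0.993%. For TUBB and TUBA4A no window was shared with another of the 10. Counting all other GENCODE 29 genes, TUBB shared 18.2% of its windows, mostly with TUBBP1, and TUBB3 shared 89.4% with AC092143.1, a separate gene entry that holds most of the same transcript. Reads from the shared windows can be split between TUBA1A, TUBA1B and TUBA1C, or between TUBB2A and TUBB2B. How the authors split them is not stated, so these 5 values are the less certain ones. The value of TUBB carries the same doubt towards TUBBP1. For TUBB3 the doubt depends on whether the authors' gene set held AC092143.1, which is not stated.

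Levels are in FPKM, a count of fragments divided by transcript length and by sequencing depth, which lets the levels of different isotypes be set side by side. Differences are log2 differences of FPKM + 1, and folds are on that scale. An isotype was called higher or lower at a difference of 1 or more, by size alone. Bulk RNA does not tell fewer cells of a type from less RNA per cell. The epithelial markers EPCAM, CDH1, KRT8, KRT18, KRT19, CLDN7 and ESRP1 were all above 1 FPKM in the 3 libraries, and none of 3 blood markers reached 1 FPKM.

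Summed tubulin FPKM was highest in dual-resistant cells. FPKM is relative to the RNA sequenced in a library, so it does not give the amount of tubulin RNA in a cell. The 10 isotypes summed to 1351 FPKM in vehicle cells, 1109 in erlotinib-resistant cells and 2547 in dual-resistant cells. Summed alpha tubulin measured 789.8, 631 and 1270.1 FPKM, and summed beta tubulin 561, 478 and 1277 FPKM, in the same order. From erlotinib-resistant to dual-resistant cells the alpha sum was 2.01-fold and the beta sum 2.66-fold higher. The ratio of the alpha to the beta sum was accordingly 1.41, 1.32 and 0.995. The genes on the table that encode other alpha and beta tubulins added at most 1.25% to either sum.

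**Figure D1:**
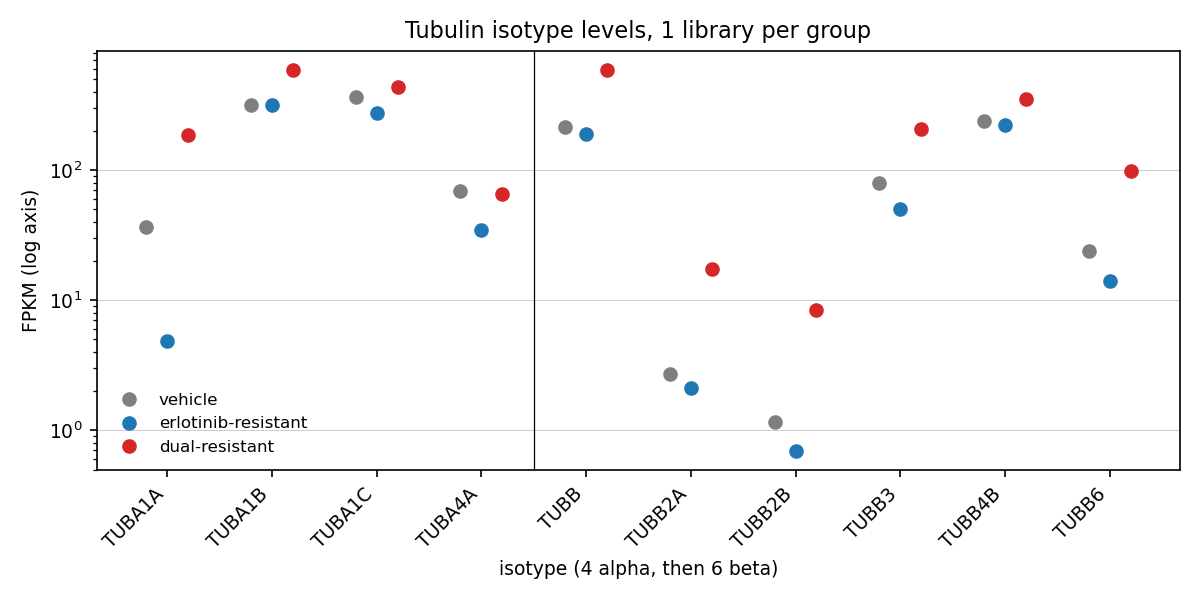
FPKM of the 10 tubulin isotypes on a log axis, 1 point per library (grey vehicle, blue erlotinib-resistant, red dual-resistant), with the 4 alpha isotypes left of the line and the 6 beta isotypes right of it. The erlotinib-resistant point is the lowest for all isotypes except TUBA1B, and the dual-resistant point is the highest for all except TUBA4A.

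Among the alpha isotypes TUBA1A spanned the widest range. TUBA1A (Entrez ID 7846, chromosome 12, 49578583 to 49582861, GRCh37) measured 36.6 FPKM in vehicle cells, 4.89 in erlotinib-resistant cells and 186 in dual-resistant cells. It was thus lowest after erlotinib and highest after both drugs. Erlotinib-resistant cells were 6.39-fold below vehicle (log2 difference -2.67), and dual-resistant cells 31.8-fold above the erlotinib-resistant ones (log2 difference 4.99) and 4.98-fold above vehicle. Among all genes it ranked 2532nd by level in vehicle cells, 9205th in erlotinib-resistant cells and 348th in dual-resistant cells. Its share of alpha tubulin was 4.63%, 0.775% and 14.7%.

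TUBA1B and TUBA1C, the housekeeping alpha isotypes, made up most alpha tubulin RNA throughout, 86.7%, 93.7% and 80.1% together. TUBA1B (Entrez ID 10376, chromosome 12, 49521565 to 49525304) measured 318, 319 and 584 FPKM in vehicle, erlotinib-resistant and dual-resistant cells. The first and second of these libraries differed by a log2 difference of 0.0048, and dual-resistant cells were 1.83-fold above the erlotinib-resistant ones. TUBA1C (Entrez ID 84790, chromosome 12, 49621709 to 49667113) measured 367, 272 and 434 FPKM. It led the alpha isotypes in vehicle cells with 46.4% of the sum, and TUBA1B led in the other 2, at 50.5% and 46.0%. TUBA1C's share was 34.2% in dual-resistant cells, its lowest, though its level was highest there.

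TUBA4A, an alpha isotype whose gene does not encode the final tyrosine of the other three, took another course. TUBA4A (Entrez ID 7277, chromosome 2, 220115001 to 220119330) measured 68.7 FPKM in vehicle cells, 34.7 in erlotinib-resistant cells and 66.0 in dual-resistant cells. The outer libraries lay close together, with a log2 difference of -0.06, or 0.21 after scaling to equal sums, and erlotinib-resistant cells were 1.95-fold below vehicle, just inside the limit. Its share was 8.70%, 5.50% and 5.19%. The row of TUBA4A overlaps that of TUBA4B on the chromosome, and the strandedness of the libraries is not stated. TUBA4B was listed at 0.0151, 0.0194 and 0.0370 FPKM.

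Because the 3 TUBA1 genes lie together on chromosome 12 and share many reads, they were also taken as 1 unit. The unit measured 721, 596 and 1204 FPKM and held 91.3%, 94.5% and 94.8% of alpha tubulin. The summed TUBA1 level was 2.02-fold higher in dual-resistant than in erlotinib-resistant cells, while TUBA1A alone differed 31.8-fold, both on the scale of FPKM + 1. TUBA1A accounted for 28.4% of the increase in alpha tubulin FPKM between these 2 libraries, TUBA1B for 41.5%, TUBA1C for 25.3% and TUBA4A for 4.90%. A further row of TUBA1A that lies inside TUBA1B, a further row of TUBA1C inside its own gene, and a further row of TUBB2A inside TUBB2B were listed at 0 in the 3 libraries.

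TUBB and TUBB4B, the general beta isotypes, traded places. TUBB (Entrez ID 203068, chromosome 6, 30688157 to 30693195) measured 215 FPKM in vehicle cells, 188 in erlotinib-resistant cells and 589.5 in dual-resistant cells. It was 3.13-fold higher in dual-resistant than in erlotinib-resistant cells and 2.73-fold higher than in vehicle. TUBB alone made up 50.3% of the increase in beta tubulin FPKM between erlotinib-resistant and dual-resistant cells. TUBB4B (Entrez ID 10383, chromosome 9, 140135711 to 140138159) measured 239, 224 and 355 FPKM. Dual-resistant cells were 1.58-fold above the erlotinib-resistant ones, the smallest difference of the 10 isotypes. TUBB4B was the leading beta isotype in vehicle and erlotinib-resistant cells, at 42.6% and 46.8% of the sum, and was 27.8% in dual-resistant cells, where TUBB led with 46.2% after 38.4% and 39.2%.

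TUBB3 and TUBB6, beta isotypes of lower abundance, were both lowest in erlotinib-resistant cells and highest in dual-resistant cells. TUBB3 (Entrez ID 10381, chromosome 16, 89985259 to 90002505) measured 79.6, 50.1 and 207 FPKM, and was 4.08-fold higher in dual-resistant than in erlotinib-resistant cells. Its share of beta tubulin was 14.2%, 10.5% and 16.3%, a narrower range than that of its level. TUBB6 (Entrez ID 84617, chromosome 18, 12308240 to 12329824) measured 23.7, 14.1 and 99.2 FPKM, a 6.63-fold difference between the 2 resistant populations. Its share was 4.22%, 2.95% and 7.77%. The row of TUBB3 overlaps that of MC1R, the melanocortin receptor gene, which was listed at 0 in the 3 libraries.

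TUBB2A and TUBB2B, a neighbouring pair of nearly identical genes, were the scarcest isotypes in every library. TUBB2A (Entrez ID 7280, chromosome 6, 3153902 to 3157783) measured 2.71 FPKM in vehicle cells, 2.10 in erlotinib-resistant cells and 17.3 in dual-resistant cells. TUBB2B (Entrez ID 347733, chromosome 6, 3224495 to 3227968) measured 1.16, 0.698 and 8.45 FPKM. Both were highest in dual-resistant cells, 5.91-fold and 5.57-fold above erlotinib-resistant cells on the scale of FPKM + 1. The added 1 compresses folds at such low levels. Their log2 differences were 2.56 and 2.48 on that scale, and 2.99 and 3.42 with a pseudocount of 0.1 FPKM. By an approximate estimate of the worth of 1 fragment, the TUBB2B values rest on about 162, 67.0 and 740 fragments. As 1 unit the pair measured 3.87, 2.79 and 25.7 FPKM and held 0.689%, 0.584% and 2.02% of beta tubulin.

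**Figure D2:**
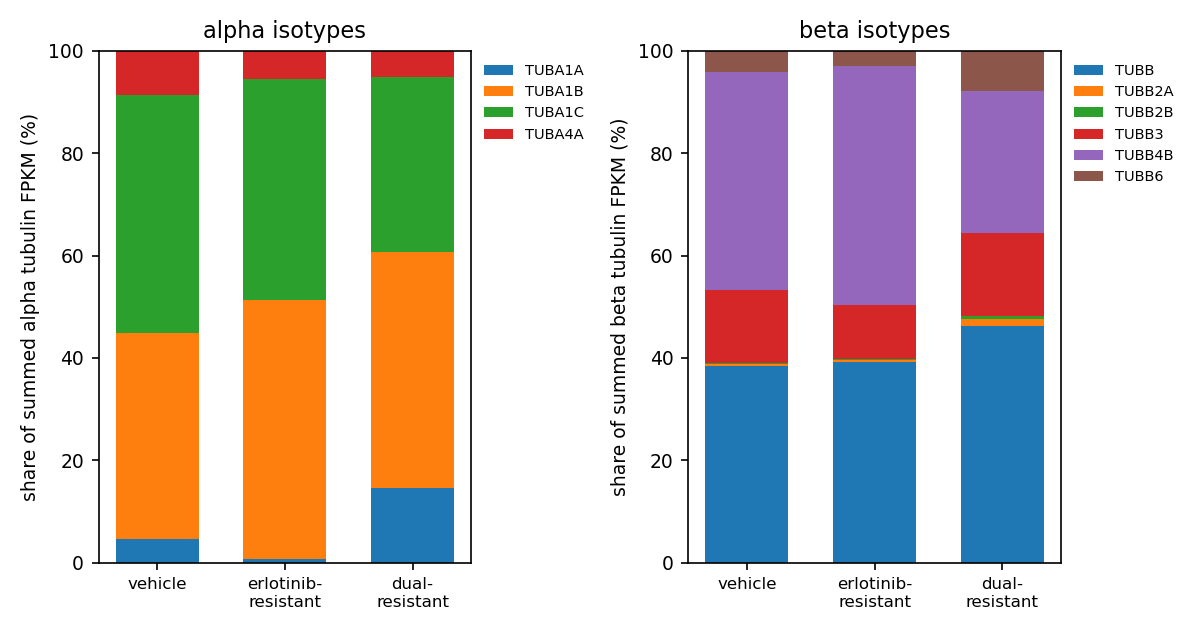
Share of each isotype in the summed alpha tubulin FPKM (left) and summed beta tubulin FPKM (right), as stacked bars from 0 to 100%, 1 bar per library. TUBA1A widens from 0.775% to 14.7% of alpha tubulin between erlotinib-resistant and dual-resistant cells, and TUBB4B narrows from 46.8% to 27.8% of beta tubulin.

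Erlotinib-resistant cells were set against vehicle to see whether tubulin RNA differed in the first resistant population. TUBA1A was lower and the other 9 lay within the limit, so that 1 of 10 was called, where 9.84% of the 13381 genes compared were called, 3.81% higher and 6.03% lower. This share is close to the background. The median log2 difference of the 10 isotypes was -0.39, against 0.0009 over all genes compared. With the values as deposited, 9 of 10 lay below 0, and 8 of 10 after scaling to equal sums, which turned TUBB4B from -0.09 to 0.08. That scaling moved the median of all genes by 0.14, and the share of higher genes among all calls from 38.7% to 53.7%.

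Dual-resistant cells were set against the erlotinib-resistant cells they came from. All 10 isotypes lay above 0, under either scaling as well, and 6 of 10 were called higher (TUBA1A, TUBB, TUBB2A, TUBB2B, TUBB3 and TUBB6), where 17.4% of 13385 genes were called, 10.1% higher and 7.22% lower. The isotypes ran from 0.66 for TUBB4B to 4.99 for TUBA1A. Their median was 1.84, against -0.03 over all genes compared. TUBA1B, at 0.87, TUBA4A, at 0.91, TUBA1C, at 0.67, and TUBB4B, at 0.66, lay within the limit, and TUBA4A reached 1.004 after scaling to equal sums. Of the 6 beta isotypes 5 were called and of the 4 alpha isotypes 1 was called.

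Dual-resistant cells were also set against vehicle, a comparison that shares its dual-resistant library with the one before. TUBA1A, TUBB, TUBB2A, TUBB2B, TUBB3 and TUBB6, 6 of 10, were called higher, where 21.4% of 13378 genes were called, 11.0% higher and 10.4% lower. Their log2 differences ran from 1.37 for TUBB3 to 2.32 for TUBA1A. The median of the 10 isotypes was 1.41, against -0.01 over all genes compared. TUBA4A alone lay below 0 as deposited, and no isotype did with either scaling. Scaling to equal sums moved the median of all genes by 0.23, brought TUBA1B from 0.88 to 1.14 and moved the share of higher genes among all calls from 51.3% to 66.0%.

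**Figure D3:**
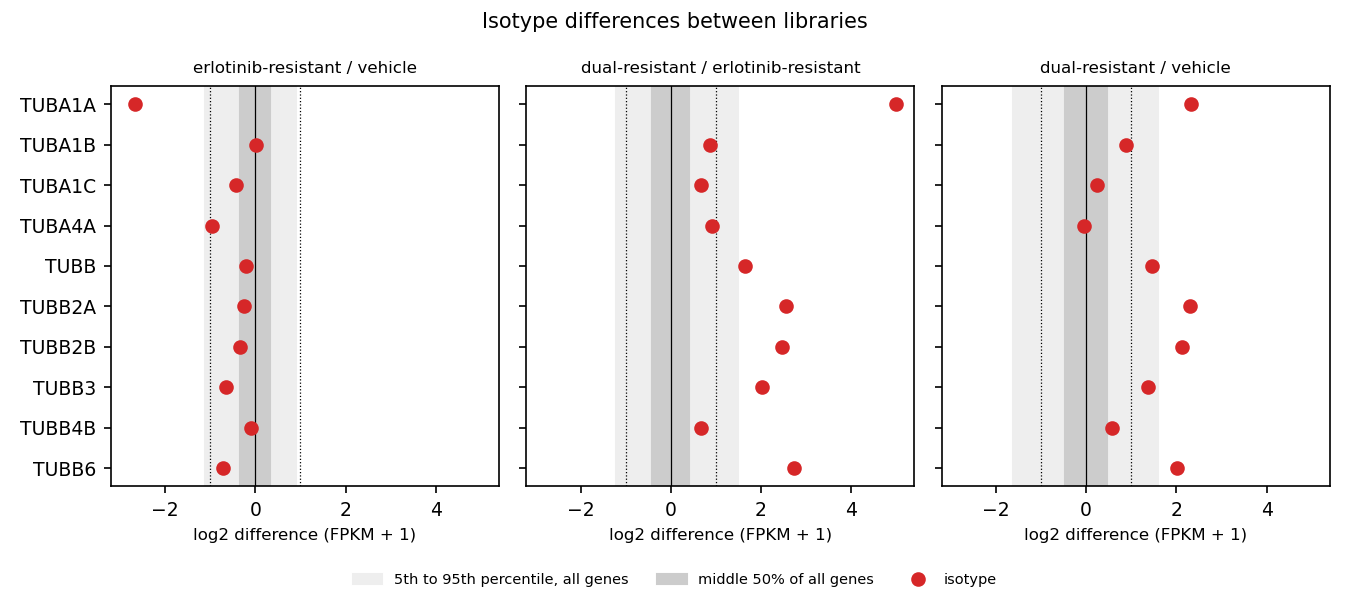
Log2 difference of FPKM + 1 of each isotype (red points) in the 3 comparisons, with the middle 50% (dark band) and the 5th to 95th percentile (light band) of all genes compared and dotted lines at the limit of 1. In the comparison of the 2 resistant populations the 10 points run from 0.66 to 4.99, and in erlotinib-resistant cells against vehicle TUBA1A alone lies past the limit.

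Within each class, a share does not depend on how a library is scaled. Between erlotinib-resistant and dual-resistant cells, the share of TUBA1A differed by a log2 ratio of 4.24. That of TUBB differed by 0.24 and that of TUBB3 by 0.63, both less than the log2 differences of their levels, 1.65 and 2.03. A smaller value for shares than for levels held for every isotype by arithmetic, because both class sums were higher in dual-resistant cells. The log2 differences of the sums were 1.01 for alpha and 1.41 for beta. TUBB4B's share differed by -0.75. In percentage points, TUBB4B's share of beta tubulin was lower by 19.0 in dual-resistant cells, and those of TUBB, TUBB3 and TUBB6 higher by 6.95, 5.78 and 4.82. TUBA1A's share of alpha tubulin was higher by 13.9 points.

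The order of the beta isotypes differed between libraries in 1 place. They followed TUBB4B, TUBB, TUBB3, TUBB6, TUBB2A and TUBB2B from highest to lowest in vehicle and erlotinib-resistant cells, and in dual-resistant cells TUBB and TUBB4B changed places. Among the alpha isotypes the order was TUBA1C, TUBA1B, TUBA4A and TUBA1A in vehicle cells. TUBA1B and TUBA1C stood the other way round in erlotinib-resistant cells, and in dual-resistant cells TUBA1A also lay above TUBA4A. With 1 library a group, no spread is available to say which neighbours in this order differ. As ratios of plain FPKM, without the added 1, the highest beta isotype exceeded the lowest 206-fold in vehicle cells. This ratio was 321-fold in erlotinib-resistant cells and 69.8-fold in dual-resistant cells. It rests on the low values of TUBB2B, at 1.16, 0.698 and 8.45 FPKM. Among the alpha isotypes the same ratio of plain FPKM was 10.0-fold, 65.2-fold and 8.85-fold.

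The genes with the most similar pattern were sought for the 6 called isotypes among 10052 other genes with at least 5 FPKM in some library and none listed at 0, by the distance between 2 log2 differences (erlotinib-resistant minus vehicle, and dual-resistant minus erlotinib-resistant). This rests on 3 libraries and is a description only. TUBA1A had no close neighbour. Its nearest genes were FGB, a fibrinogen chain, at a distance of 1.32, COL6A2, a collagen VI chain, at 1.36, and SHC2, a signalling adaptor, at 1.46. COL6A2 measured 2.97 FPKM in vehicle cells, 0.517 in erlotinib-resistant cells and 34.1 in dual-resistant cells. For the other 5 isotypes the nearest gene lay within 0.11. TUBB was nearest to MXRA7, NDST1 and CTIF, TUBB6 to genes that included PLEKHO1 and POPDC3, and TUBB3 to a row named uc002jxg, TNFRSF9 and SPEG. TUBB2A was nearest to a row named uc003szp, ARNT2 and C17orf103, and TUBB2B to DENND2A, TUBB2A and uc003szp.

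Of the other tubulins, 5 of 13 reached 1 FPKM in some library. TUBB4A, the beta isotype best known from oligodendrocytes, measured 0.873 FPKM in vehicle cells, 0.362 in erlotinib-resistant cells and 15.7 in dual-resistant cells. It reached 1 FPKM in dual-resistant cells alone, which fixed its direction, and it lay between TUBB2B and TUBB2A there. TUBE1, epsilon tubulin of centrioles, measured 12.7, 11.8 and 2.77 FPKM and was 3.40-fold lower in dual-resistant than in erlotinib-resistant cells. TUBG1, the gamma tubulin that nucleates microtubules, measured 39.0, 35.9 and 46.8 FPKM, and TUBD1, delta tubulin, 5.21, 5.03 and 2.83 FPKM. The alpha genes TUBA3C, TUBA3D, TUBA3E, TUBA8 and TUBAL3 did not reach 1 FPKM.

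Tubulin is folded by prefoldin, the CCT chaperonin and the tubulin cofactors. None of 21 such genes was called in erlotinib-resistant cells against vehicle (median -0.16), beside 9.84% of all genes. In dual-resistant against erlotinib-resistant cells 1 was higher and 1 lower (median -0.02), beside 10.1% and 7.22% of all genes. The higher one was TBCD, the cofactor that holds beta tubulin, at 27.2 FPKM against 10.6 and 14.3 in vehicle. The lower one was PFDN2, a prefoldin subunit, at 78.2 FPKM against 179 and 119 in vehicle. TBCC measured 26.7, 14.9 and 15.2 FPKM and PFDN6 98.9, 55.4 and 49.6 FPKM in vehicle, erlotinib-resistant and dual-resistant cells. The tubulin isotypes and their folding machinery had medians of 1.84 and -0.02 between the 2 resistant populations.

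The genes of tubulin autoregulation were few, and 1 of 4 was called between the 2 resistant populations, as lower, beside 7.22% of all genes. TTC5, the adaptor, measured 11.2, 13.4 and 12.1 FPKM. SCAPER, which links it to mRNA decay, measured 2.06, 1.48 and 3.05 FPKM. CNOT1, the scaffold of the CCR4-NOT deadenylase, measured 48.0, 78.4 and 36.1 FPKM and was 2.14-fold lower in dual-resistant than in erlotinib-resistant cells. CNOT11, in the table under its older symbol C2orf29, measured 53.1, 47.8 and 30.1 FPKM.

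Of 16 genes of tubulin modification, most of which act on the tails, 3 were higher and none lower in dual-resistant against erlotinib-resistant cells (median 0.07), beside 10.1% higher and 7.22% lower of all genes. TTL, the ligase that restores the final tyrosine of alpha tubulin, measured 9.13, 10.9 and 26.3 FPKM and was 2.28-fold higher. TTLL7, which adds glutamates to beta tubulin, measured 0.224, 0.591 and 8.58 FPKM, and VASH1, a carboxypeptidase that removes the tyrosine, 0.419, 0.282 and 1.75. Both reached 1 FPKM in dual-resistant cells alone, which fixed their direction. AGTPBP1, which trims glutamates, was the 1 of 16 called higher in erlotinib-resistant cells against vehicle, beside 3.81% of all genes, at 16.6 FPKM against 7.12, and measured 19.5 in dual-resistant cells.

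Microtubule-associated proteins were called in both directions, with 4 of 20 higher and 3 lower between the 2 resistant populations (median 0.29), beside 10.1% and 7.22% of all genes. DCLK1, a doublecortin-like kinase, measured 0.169, 0.159 and 9.93 FPKM, and it too passed the filter in dual-resistant cells alone. MAP1B, a neuronal microtubule stabiliser, measured 6.10, 8.69 and 33.3 FPKM and was 3.54-fold higher, and MID1, a microtubule-bound ubiquitin ligase, measured 4.70, 5.01 and 16.5 FPKM. EML2 was lower, at 8.41 FPKM against 26.1 and 15.9 in vehicle. With a pseudocount of 0.1 FPKM, 7 in place of 4 of this list were higher between the 2 resistant populations, and 4 in place of 3 lower. The share of all genes was not computed at this pseudocount. EML1, named after its values were seen, was among the added higher ones, at 0.896, 0.548 and 2.09 FPKM. It reached 1 FPKM in dual-resistant cells alone, which fixed its direction. Against vehicle, 6 of 20 were higher and 2 lower in dual-resistant cells, beside 11.0% and 10.4% of all genes, and 1 in place of 2 was lower with either scaling. Over all genes, lower calls went from 1397 to 1056 with equal sums and to 1287 with equal upper quartiles. In erlotinib-resistant cells against vehicle 1 of 21 was lower and none higher, beside 6.03% and 3.81% of all genes. The lower one was MTUS1, named after its values were seen, at a log2 difference of -1.01. With either scaling none was lower, while lower calls over all genes went from 807 to 640 with equal sums and to 754 with equal upper quartiles. With a pseudocount of 0.1 FPKM 1 was higher, again without a share of all genes. This was MAPT, also named after its values were seen, at 1.06 FPKM against 0.288. It reached 1 FPKM in the resistant populations alone, which fixed its direction. MTUS1 has no value in dual-resistant cells and enters no comparison with them.

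Proteins that track growing microtubule ends had no member called between the 2 resistant populations (17 compared, median 0.22), beside 17.4% of all genes. In erlotinib-resistant cells against vehicle, 2 of 17 were higher and none lower, beside 3.81% and 6.03% of all genes. These were CLIP2, at 16.4 FPKM against 6.20, and NAV3, at 2.28 against 0.347. NAV3 reached 1 FPKM in the resistant populations alone, which fixed its direction against vehicle. In dual-resistant cells against vehicle 6 of 17 were higher and none lower, beside 11.0% and 10.4% of all genes. Among them were NAV3, its direction again fixed, NAV1, at 10.4 FPKM against 3.15, and MAPRE2, at 10.6 against 4.51.

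Among destabilisers and spindle proteins, more members were called between vehicle and erlotinib-resistant cells, the first step, than between the 2 resistant populations, the second. Of all genes, 9.84% were called at the first step (3.81% higher) and 17.4% at the second (10.1% higher). Of the destabilisers, 5 of 13 were higher and none lower in erlotinib-resistant cells against vehicle (median 0.38), and 2 of 13 higher at the second (median -0.003). These 2 were KATNAL1 and KIF24, the latter named after its values were seen. KIF24 was listed at 0, 0 and 1.298 FPKM and passed the filter in dual-resistant cells alone, which fixed its direction. KIF18B, a mitotic kinesin, measured 1.98, 9.43 and 6.87 FPKM, KIF18A 2.73, 6.74 and 10.3, STMN3, a stathmin, 5.87, 19.1 and 11.0, and the severing enzyme KATNAL1 0.643, 1.22 and 4.80. Of the nucleation and spindle genes, 7 of 20 were higher and none lower at the first step (median 0.63) and none was called at the second (median 0.10). TPX2 measured 14.7, 50.9 and 42.6 FPKM, PRC1, which bundles spindle microtubules, 3.89, 15.7 and 21.2, KIF11 2.29, 6.87 and 8.43, and KIF4A 4.56, 12.9 and 10.8. Of the tubulin isotypes, 1 of 10 was called lower at the first step and 6 of 10 higher at the second.

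**Figure D4:**
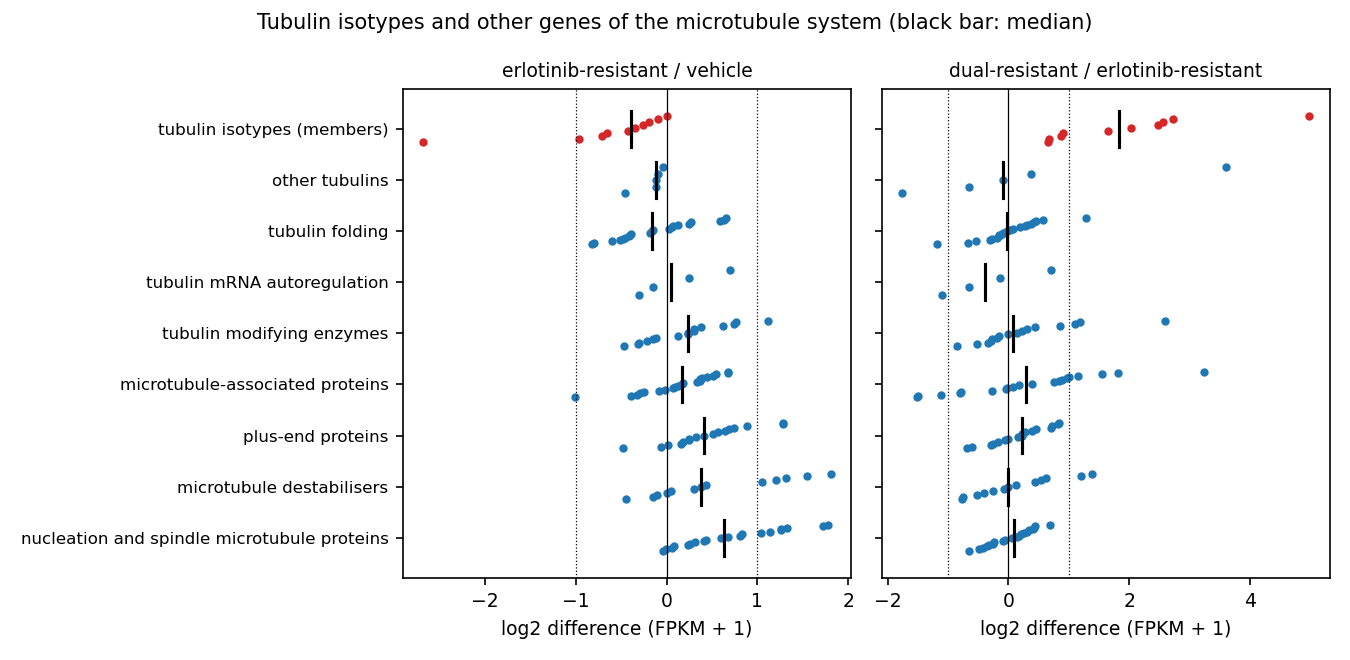
Log2 difference of FPKM + 1 for each member (points) and the median (black bar) of the 10 tubulin isotypes (red) and 8 lists of other genes of the microtubule system (blue), for erlotinib-resistant cells against vehicle (left) and dual-resistant against erlotinib-resistant cells (right). The isotypes have a median of -0.39 on the left and 1.84 on the right, and the spindle proteins 0.63 and 0.10.

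Markers of dividing cells, neurons and cell state also differed between the libraries, and their part in the tubulin differences was not tested. The 6 proliferation markers summed to 168, 259 and 241 FPKM in vehicle, erlotinib-resistant and dual-resistant cells. MKI67 measured 1.72, 7.80 and 9.86 FPKM and CCNB1 28.9, 44.4 and 46.8, both highest in dual-resistant cells, while TOP2A, at 14.1, 88.2 and 73.5 FPKM, and CDK1, at 10.3, 36.7 and 23.1, were highest in erlotinib-resistant cells. PCNA was highest in vehicle cells, at 87.6, 56.3 and 65.9 FPKM. The 14 neuronal markers summed to 55.7, 26.5 and 72.7 FPKM. Most of this was ENO2, a glycolytic enolase, at 42.2, 17.8 and 66.4 FPKM, with SYT1 at 12.5, 8.32 and 3.53. INA, a neuronal intermediate filament, measured 0.717, 0.159 and 2.46 FPKM, and NEFL, SNAP25, ELAVL4 and STMN2 were listed at 0 in the 3 libraries. The 7 epithelial markers summed to 4451, 3926 and 1835 FPKM in the same order. The 7 mesenchymal markers summed to 109, 64.0 and 636 FPKM, of which 3, 3 and 6 reached 1 FPKM. FN1, fibronectin, led this sum in vehicle cells and measured 101, 27.9 and 176 FPKM. The other 6 were higher in erlotinib-resistant than in vehicle cells, but CDH2, ZEB1, ZEB2 and TWIST1 lay below 1 FPKM in both. VIM, vimentin, measured 7.04, 23.3 and 414 FPKM, and SNAI2, a transcription factor, 1.08, 12.2 and 20.6 FPKM.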

How the data were processed

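RNA sequencing of 3 populations of HCC827 cells was analysed, 1 library each. The authors deposited 1 table of FPKM values per gene, with 1 column per library. Per the submitters' processing notes, TopHat 1.3 and Cufflinks 1.3 were used with GRCh37. No gene set, read length, strandedness or rule for reads that map to several genes is given in the sources used here. Start positions were taken to count from 0 and are printed from 1.

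Rows sharing a symbol were summed. Log2 differences of FPKM + 1 were taken for genes that reached 1 FPKM in any library and had no missing cell in either library compared. A log2 difference of 1 or more was called, with no test. The deposited FPKM sums were 596084, 528920 and 494817. Depth was estimated from the 1st percentile of FPKM times length in single-exon genes: about 69.4, 47.5 and 43.3 fragments per FPKM and kb in vehicle, erlotinib-resistant and dual-resistant cells. Shares are of the summed FPKM of the 4 alpha or 6 beta isotypes. Sequences come from GENCODE 29 (GRCh38), the principal coding transcript of each gene, and windows were matched on 1 strand. Biopython 1.88 aligned coding sequences, and pandas 2.3.3 and numpy 2.4.6 were used otherwise. The error rate of the calls was not tested.

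All 10 isotypes are named, and from each of 8 gene lists up to 4 members with the largest difference and no library listed at 0. The isotypes and lists were chosen with earlier results of these data known. Other pseudocounts, filters, scalings, row rules and limits were tried. Some items are not reported here.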

Additional observations from a re-analysis of the deposited data

How the results depend on the processing

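With 1 library per group nothing has a test, and every call is by size. With a limit of 1.5-fold, 4 isotypes in place of 1 were called in erlotinib-resistant cells against vehicle and 10 in place of 6 in dual-resistant against erlotinib-resistant cells. The share of all genes past this lower limit was not computed, so these 2 counts cannot be read against a background. Counts of isotypes called were 1, 6 and 6 with a pseudocount of 0.1 FPKM, with an upper-quartile scaling, with the highest row of a symbol and without the filter, and 1, 7 and 7 after scaling to equal sums. That last scaling also moved the calls over all genes. Higher calls went from 510 to 741, from 1357 to 1522 and from 1470 to 2047, in the same order of comparisons. Lower calls went from 807 to 640, from 967 to 843 and from 1397 to 1056. Calls over all genes were not counted with the other pseudocount, with the highest row or without the filter. Expressed as shares of the class sum, an alternative chosen after seeing the data, TUBB and TUBB3 no longer passed the limit in either comparison of dual-resistant cells, nor TUBB6 against vehicle (log2 ratio 0.88). TUBA1A, TUBB2A and TUBB2B passed it in both, and no called isotype turned its direction under any alternative. Alpha isotypes from the TUBA1 genes, and TUBB2A with TUBB2B, may share reads, and the table does not give how these were split. No paired analysis was possible because each group has 1 library.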
